A study of Mus musculus with 6 samples.

Results

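The 9 genes described here carry out MHC class I peptide processing, and they were followed in myoepithelial cells grown from the exorbital lacrimal gland of mice. These are the contractile cells that surround the secretory units of the gland. They were B2m, Tap1, Tap2, Tapbp, Psmb8, Psmb9, Psmb10, Nlrc5 and Erap1, chosen by symbol among probe sets with exactly 1 gene symbol, taking for each gene the probe set with the highest mean over the 6 arrays. All 9 were measured, out of 22180 genes compared. The cells came from female mice, 3 arrays from TSP1 null mice and 3 from wild type C57BL/6J mice, and were grown without treatment for about 2 to 3 weeks in serum-containing medium after collagenase digestion of the gland. TSP1 is thrombospondin-1, a secreted matrix protein encoded by Thbs1, and the null mouse stands for dry eye disease in this series. The comparison asks what differs between diseased and healthy mice. The labels give no age and no strain background of the null mice. The titles call the arrays of each group biological replicates, but no label says whether each array had an animal of its own. The p-values therefore measure the spread between these arrays, which may in part be technical.

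Class I molecules show short peptides from the cell's own proteins to CD8 T cells. Proteins are cut by the proteasome, whose immunoproteasome form carries the inducible catalytic subunits encoded by Psmb8, Psmb9 and Psmb10 in place of those encoded by Psmb5, Psmb6 and Psmb7. The TAP1 and TAP2 transporter moves the peptides into the endoplasmic reticulum, tapasin (Tapbp) bridges it to the class I heavy chain, ERAP1 trims the peptides, and beta-2 microglobulin (B2m) is the light chain of the finished molecule. NLRC5 is a transactivator of class I genes, and interferon gamma induces most genes of this pathway. Cells of the blood lineage such as macrophages express the immunoproteasome without such a stimulus.

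Psmb9, Tap1, Psmb8 and Tap2 follow each other in this order on mouse chromosome 17, between the class II genes H2-DMb1 and H2-Ob, in RefSeq's gene order of assembly GRCm38.p6. RefSeq promoter windows, which run from 250 bases before to 50 bases after the start site, were at hand for 7 of the 9 members, all but Tap2 and Nlrc5. Tap1 and Psmb9 point away from each other, with 225 bases between their start sites, and 275 of the 300 bases of their windows are the same DNA. The Tap1 window (chr17:34187306-34187605, plus strand) is shown because these neighbours had differences of opposite sign, and its capitals mark the bases between both start sites. Each window was searched on both strands for GAAA followed by any 2 bases and GAAA, the core of an interferon regulatory factor element, and for TTC followed by any 3 bases and GAA, the core of a gamma-activated site. The first was found in 2 of the 7 windows (B2m, chr2:122147437-122147736, and Erap1, chr13:74639603-74639902) and in 3.43% of all 32817 mouse promoter windows. The second was found in 1 of the 7 (Psmb8, chr17:34197945-34198244) and in 8.29% of all windows. In those 3 windows, all on the plus strand, capitals mark the match, which begins at base -139 from the start site in B2m, -4 in Erap1 and -97 in Psmb8, and no match overlapped another. A match of letters is not a binding site, and a window without one says only that these letters are not in it.
Tap1: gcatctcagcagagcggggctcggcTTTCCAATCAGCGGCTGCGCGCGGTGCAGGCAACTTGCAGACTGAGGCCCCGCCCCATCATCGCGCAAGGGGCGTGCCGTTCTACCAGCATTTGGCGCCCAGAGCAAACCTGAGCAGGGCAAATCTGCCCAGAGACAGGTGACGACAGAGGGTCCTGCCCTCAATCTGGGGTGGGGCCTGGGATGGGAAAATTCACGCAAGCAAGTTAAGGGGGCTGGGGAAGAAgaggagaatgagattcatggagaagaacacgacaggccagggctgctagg
B2m: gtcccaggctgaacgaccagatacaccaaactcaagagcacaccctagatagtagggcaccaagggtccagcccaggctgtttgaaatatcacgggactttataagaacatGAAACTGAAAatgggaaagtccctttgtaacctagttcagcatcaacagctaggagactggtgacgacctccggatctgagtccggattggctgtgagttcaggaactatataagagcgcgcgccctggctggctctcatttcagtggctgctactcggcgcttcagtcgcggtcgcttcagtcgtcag
Erap1: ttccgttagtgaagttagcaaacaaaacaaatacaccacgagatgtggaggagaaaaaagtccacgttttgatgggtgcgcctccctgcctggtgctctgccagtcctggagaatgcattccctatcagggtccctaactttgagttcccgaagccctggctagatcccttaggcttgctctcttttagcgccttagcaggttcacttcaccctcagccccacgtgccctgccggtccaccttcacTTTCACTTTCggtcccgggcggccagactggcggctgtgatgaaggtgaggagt
Psmb8: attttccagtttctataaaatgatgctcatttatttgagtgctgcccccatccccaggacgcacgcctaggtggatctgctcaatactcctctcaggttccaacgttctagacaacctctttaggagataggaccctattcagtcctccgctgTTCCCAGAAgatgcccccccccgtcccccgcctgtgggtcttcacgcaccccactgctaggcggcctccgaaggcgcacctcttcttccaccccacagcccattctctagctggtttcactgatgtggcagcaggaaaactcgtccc

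The median log2 signal of an array, over 41345 probe sets, was 5.25 to 5.32, and precision is limited by the number of arrays. The targeted gene Thbs1 read 12.73 to 13.03 on the null arrays and 13.51 to 13.75 on the wild-type arrays, a difference of -0.68 (SE 0.13), and the labels do not say whether its probes lie in the disrupted part of the gene. By limma the threshold of 0.05 on the adjusted p was passed by 0 of 22180 genes (0%), while 2341 had an unadjusted p under 0.05. The number that passed was 34 when the second null array was left out and 1 when the first wild-type array was, none of them a member. Of the markers that should define the culture, Acta2 read between 13.85 and 14.01. The basal keratin Krt14 was far below it, at 6.12 ± 0.30 in null and 5.23 ± 0.29 in wild type (SD, n = 3). Krt14 was higher on all 3 null arrays, by 0.89 (SE 0.20, adjusted p = 0.290 by limma). Krt5 has no probe set of its own here. Of the 11 myoepithelial markers measured 6 had higher and 5 lower means in null. Their list mean was 9.10 to 9.44 on the null arrays and 8.97 to 9.21 on the wild-type arrays. Fibroblast markers ranged widely, with Vim at 13.56 and 13.61 and Col1a1 at 13.31 and 12.76 on average in null and wild type. Fap, of the same list, read only 5.78 and 5.37. Among epithelial markers Epcam was dim (4.95 and 5.10), while Krt8 read 7.43 and 7.08 on average, above the array median. All 25 macrophage markers measured had lower means in the null group, with a list mean of 8.90, 9.66 and 7.26 on the null arrays and 9.49, 10.22 and 10.36 on the wild-type arrays.

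No member passed the limma threshold over all genes, and the members did not share a direction. The 3 genes of the peptide loading machinery (Tap1, Tap2, Tapbp) were higher on average in the null group, and the other 6, among them all 3 immunoproteasome subunits, had lower means. The median difference of the 9, null minus wild type, was -0.10 on the log2 scale, beside 0.02 over all genes. In 3 of the 9 the arrays of both groups did not overlap (Tap1 and Tap2 higher, B2m lower in null), against 15.8% of all genes. An unadjusted p under 0.05 was reached by 1 of the 9, Tap2, against 10.6% of all genes. The 95% interval of the difference lay inside a 1.5-fold change in both directions for 6 of the 9, against 70% of all genes, and the exceptions were Tap2, Psmb9 and Erap1.

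**Figure D1:**
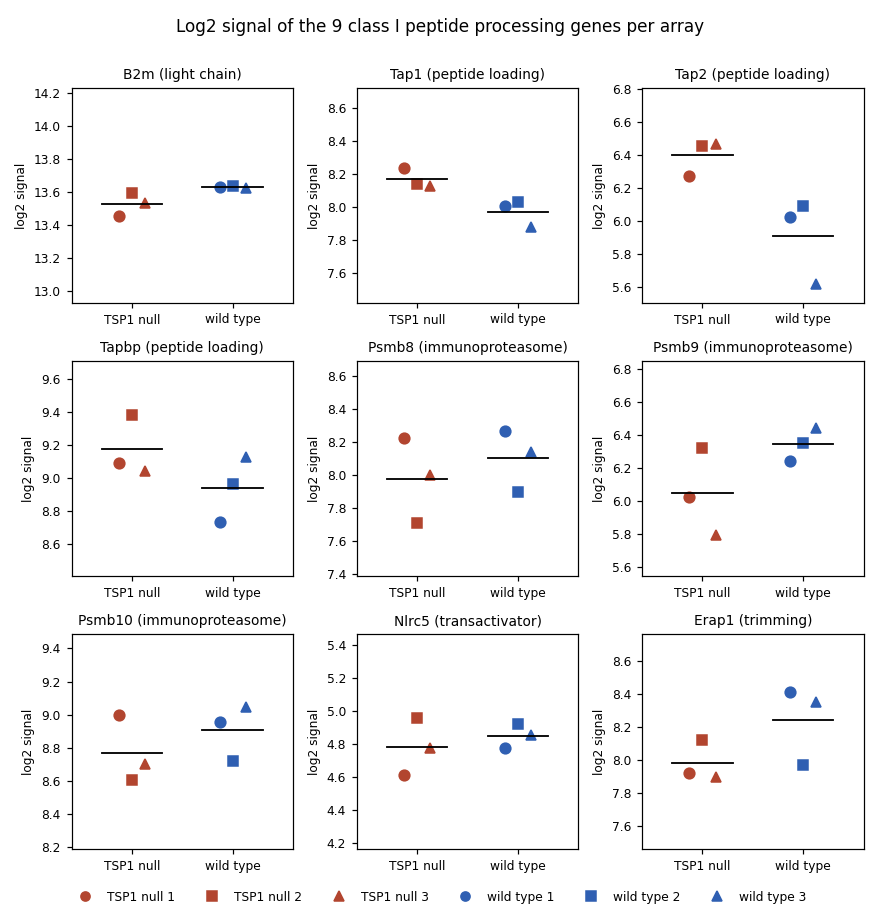
Log2 signal (vertical axis, the same span of 1.3 in each panel) of the 9 genes on each of the 3 TSP1 null and 3 wild-type arrays, with a marker for each replicate number and a line at the group mean. Tap1 and Tap2 lie higher and B2m lower on all 3 null arrays, and in the other 6 genes the groups overlap.

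B2m, the light chain that every classical class I molecule needs, was among the brightest genes, with 99.9% of genes at a lower mean signal. It read 13.45, 13.59 and 13.53 on the null arrays and 13.63, 13.63 and 13.62 on the wild-type arrays. Every null array lay below every wild-type array, and the null arrays were more spread out (SD 0.072 against 0.0049, n = 3). The difference was -0.10 (SE 0.10, 95% interval -0.34 to 0.13, adjusted p = 0.776 by limma), or 0.932-fold. B2m is on chromosome 2, as is Thbs1, with 134 genes of RefSeq's table between them.

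Tap2, a subunit of the peptide transporter, had the largest difference of the 9. It read 6.27, 6.45 and 6.46 on the null arrays and 6.02, 6.09 and 5.62 on the wild-type arrays, so that the groups were apart and the third wild-type array was the lowest. The difference was 0.49 (SE 0.15, 95% interval 0.13 to 0.84), or 1.40-fold, with an unadjusted p of 0.0131 and an adjusted p of 0.366 by limma. Of all genes, 6.36% had a larger difference in either direction. Without the third wild-type array it was 0.34, and with the macrophage list mean as a covariate 0.41 (adjusted p = 0.797).

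Tap1, the partner subunit, read 8.23, 8.14 and 8.13 on the null arrays and 8.01, 8.03 and 7.88 on the wild-type arrays. Here too all null arrays were the higher ones, by a smaller step of 0.20 (SE 0.11, 95% interval -0.05 to 0.44, adjusted p = 0.560 by limma), or 1.14-fold. The difference kept its size, 0.20, with the macrophage list mean as a covariate. Tapbp, which encodes tapasin, read 9.09, 9.38 and 9.04 on the null arrays and 8.73, 8.96 and 9.12 on the wild-type arrays. The groups overlapped, since the third wild-type array was above 2 of the null arrays, and the difference was 0.23 (SE 0.15, adjusted p = 0.627 by limma). A second, dimmer probe set of Tapbp had group means of 6.48 and 6.48, so the mean of both probe sets differed by only 0.12. With the macrophage list mean as a covariate the Tapbp difference was 0.46 (SE 0.18, adjusted p = 0.797).

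**Figure D2:**
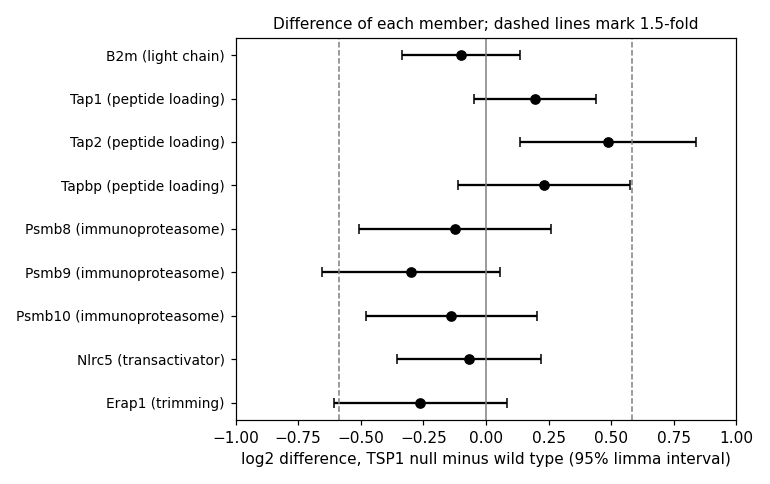
Difference of each of the 9 genes (log2, TSP1 null minus wild type) with its 95% interval from limma, over 3 arrays per group; dashed lines mark a 1.5-fold change. The interval of Tap2 (0.13 to 0.84) lies above 0, and those of the other 8 genes include 0.

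Psmb9, a catalytic subunit of the immunoproteasome, had the largest difference toward lower signals among the members. It read 6.03, 6.32 and 5.79 on the null arrays and 6.24, 6.35 and 6.44 on the wild-type arrays, with the third null array lowest and the second inside the wild-type range. The difference was -0.30 (SE 0.15, 95% interval -0.66 to 0.06, adjusted p = 0.543 by limma), or 1.23-fold lower. The 6 arrays stood in the same order for Psmb9 as for the macrophage list mean, from the third null array at the bottom to the third wild-type array at the top. Across the 6 arrays Pearson's r was 0.979 (exact permutation p = 0.00139, two-sided, adjusted p = 0.025) and Spearman's rho 1 (exact permutation p = 0.00278, adjusted p = 0.05), among 18 relations of the 9 members to the macrophage and interferon lists. Without the 2 arrays farthest from the median of the macrophage mean r was 0.932, and 0.532% of all genes had an r at least as high. The same order within each group follows from the rho of 1. The relations to the list means were added after the values were seen, so their p-values are a description. The permutation also ignored the groups, and both Psmb9 and the macrophage mean were lower on average in null. With the macrophage list mean as a covariate the Psmb9 difference was -0.0043 (SE 0.15). In RNA of a whole culture, fewer cells of a type and less RNA per cell cannot be told apart.

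For the other 8 members r with the macrophage mean ran from -0.676 for Tap2 to 0.621 for B2m (adjusted p of 0.675 or above over the 18 relations, exact permutation tests), which with 6 arrays leaves relations of moderate size undetectable. Tap2 read about as high on the third null array, where the macrophage markers were lowest, as on the second (6.46 and 6.45). Tap1 and Psmb9, which start on either side of the DNA shown in capitals above, were also set against each other within each array. Tap1 minus Psmb9 was 2.21, 1.82 and 2.34 on the null arrays and 1.77, 1.68 and 1.43 on the wild-type arrays, with no overlap, a difference of 0.50 (SE 0.19). This pair was chosen after its values were seen, so no test is given.

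**Figure D3:**
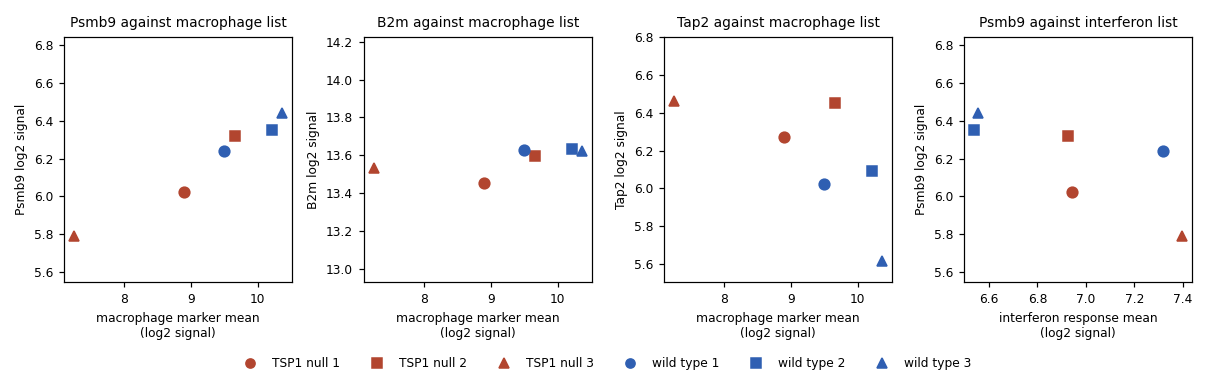
Log2 signal of Psmb9, B2m and Tap2 on each array (vertical axes) against the mean log2 signal of 25 macrophage markers, and of Psmb9 against that of 24 interferon response genes (right panel). Psmb9 lies higher with the macrophage mean over all 6 arrays (r of 0.979), while Tap2 does not.

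Psmb8, the subunit that takes the place of the one encoded by Psmb5, read 8.23, 7.71 and 7.998 on the null arrays and 8.27, 7.90 and 8.14 on the wild-type arrays. Psmb10 read 8.99, 8.60 and 8.70 on the null arrays and 8.96, 8.72 and 9.05 on the wild-type arrays. In both genes the second null array was the lowest of the 6, and the groups overlapped. The differences were -0.12 (SE 0.16, adjusted p = 0.841) for Psmb8 and -0.14 (SE 0.15, adjusted p = 0.791) for Psmb10 by limma. Without the second null array Psmb8 differed by 0.011, so its sign rested on that array. Psmb10 differed by -0.25 without the first null array and by -0.06 without the second, and by -0.23 and -0.07 without the second and the third wild-type array. Psme1, an interferon-inducible subunit of the PA28 proteasome activator, was also lowest on the second null array (9.64) and highest on the first wild-type array (10.32), as Psmb8 was.

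Each inducible subunit was then set against the constitutive one it replaces, as the difference of their log2 signals within an array. Psmb9 minus Psmb6 was -4.02, -3.47 and -4.14 on the null arrays and -3.39, -3.59 and -3.52 on the wild-type arrays, so that all null arrays but the second lay below the others. The difference between the groups was -0.37 (SE 0.22, exact permutation p = 0.3, two-sided, or 0.6 adjusted over the 3 pairs). For Psmb8 minus Psmb5 it was -0.24 (SE 0.32) and for Psmb10 minus Psmb7 -0.14 (SE 0.19), each with an exact permutation p of 0.6. With 3 arrays against 3 the smallest p possible is 0.1. The differences of the Psmb8 and the Psmb10 pair turned sign without the first wild-type array (0.042 and 0.012), on which Psmb5, Psmb6 and Psmb7 had their lowest signals. The constitutive subunits themselves differed by 0.12 (Psmb5), 0.07 (Psmb6) and 0.0044 (Psmb7), with an adjusted p of 0.866 or above by limma, and without the first wild-type array they were -0.08, -0.03 and -0.13.

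**Figure D4:**
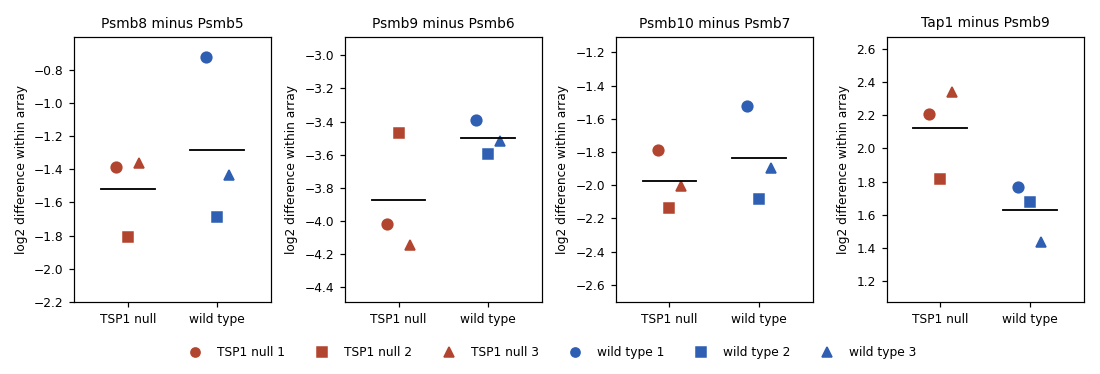
Difference of 2 genes' log2 signals within each array, for the 3 pairs of an inducible and a constitutive proteasome subunit and for Tap1 minus Psmb9, with a line at the group mean (3 arrays each). The groups overlap in the first 3 panels and lie apart in the last.

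Erap1, the aminopeptidase that trims peptides in the endoplasmic reticulum, read 7.92, 8.12 and 7.90 on the null arrays and 8.41, 7.97 and 8.35 on the wild-type arrays. The second wild-type array lay within the null range, and the difference was -0.26 (SE 0.15, 95% interval -0.61 to 0.08, adjusted p = 0.580 by limma). Nlrc5 was dim, with 32.9% of genes at a lower mean signal. It read 4.61, 4.96 and 4.77 on the null arrays and 4.77, 4.92 and 4.85 on the wild-type arrays, a difference of -0.07 (SE 0.12, adjusted p = 0.889 by limma) whose sign turned without the first null array. At such a level background compresses differences, so a difference in Nlrc5 may not be detectable here.

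The class I heavy chains and their relatives showed no common direction either. Of the 25 listed, 18 had a probe set with their symbol alone. Of these 8 had higher and 10 lower means in the null group, with a median difference of -0.07 beside 0.02 over all genes, and 0 passed over all genes. H2-T23, which encodes the non-classical molecule Qa-1, read 7.42, 7.54 and 7.43 on the null arrays and 7.15, 6.91 and 6.95 on the wild-type arrays. Its groups were apart, with a difference of 0.46 (SE 0.11, adjusted p = 0.313 by limma), or 1.37-fold, and 0.46 as well with the macrophage list mean as a covariate. H2-K1, a classical heavy chain, read 8.42, 8.59 and 8.43 on the null arrays and 8.61, 8.78 and 8.68 on the wild-type arrays, apart in the other direction. Its difference was -0.21 (SE 0.11, adjusted p = 0.554 by limma), and -0.12 with that covariate. H2-M5 read 5.43 in null and 5.85 in wild type on average, little above the array median. Its groups were apart, with a difference of -0.42 (SE 0.15). The lipid-presenting Cd1d1 was dim (5.00 and 5.46 on average), its groups overlapped, and it differed by -0.46 (SE 0.25). The Cd1d1 value was -0.24 without the second null array, -0.71 without the third null array, -0.29 without the first wild-type array and -1.04 with the macrophage list mean as a covariate. Heavy chain genes are near-copies of each other, so probes may read more than 1 of them, and H2-D1, which shares its probe set with H2-Q2, was not analysed here.

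In the remaining parts of the pathway differences were of either sign. Of 8 loading chaperones, 5 had higher and 3 lower means in null (median 0.08), and the largest difference was that of Ganab, a glucosidase of glycoprotein folding, at 0.57 (SE 0.18, adjusted p = 0.375 by limma), or 0.36 without the first wild-type array. Hspa5, the main chaperone of the endoplasmic reticulum, differed by 0.32 (SE 0.14), or 0.12 with the macrophage list mean as a covariate. Of 13 constitutive core subunits of the proteasome 10 had higher and 3 lower means (median 0.05, from -0.13 for Psma5 to 0.18 for Psmb4), and Psmb3 and Psma6 differed by 0.13 and 0.12. By the mean of its probe sets Psma5 differed by -0.34 (SE 0.14). Of 17 regulatory particle subunits 11 were higher and 6 lower (median 0.08), with Psmd4 at -0.24 and Psmc4 at -0.17. Among 9 activator and assembly genes (6 higher, 3 lower, median 0.08) Psmg4 and Psmg1 differed by 0.22 and 0.16. The activator subunits Psme1 and Psme2 differed by 0.03 (SE 0.21) and -0.07 (SE 0.19), and both turned sign with the macrophage list mean as a covariate. In these 4 lists 0 genes passed over all genes tested. Among 8 cytosolic and other peptidases, 4 higher and 4 lower, Npepps differed by 0.26 (SE 0.11) and Rnpep by -0.47 (SE 0.19), or -0.08 with that covariate.

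Genes that drive class I expression were measured next to the members. Of 17 interferon signalling genes 11 had higher and 6 lower means in null (median 0.11), 5 reached an unadjusted p under 0.05 (4 higher, 1 lower, against 6.28% and 4.27% of all genes) and 0 passed over all genes. Irf7, a transcription factor of the type I interferon response, read 7.53, 7.29 and 7.92 on the null arrays and 7.01, 6.69 and 7.04 on the wild-type arrays, a difference of 0.66 (SE 0.18, adjusted p = 0.335 by limma), or 0.32 with the macrophage list mean as a covariate. Socs3, a feedback inhibitor of cytokine signalling, differed by 0.60 (SE 0.18), Stat3 by 0.36 (SE 0.14), and Ifngr1, a chain of the interferon gamma receptor, by -0.34 (SE 0.14), or -0.17 with the macrophage list mean as a covariate. Irf1, a main inducer of class I genes, differed by 0.07 (SE 0.11). Among 9 promoter-binding factors of class I genes (4 higher, 5 lower, median -0.04) Rfx5 differed by 0.20 (SE 0.10) and Nfya by -0.18 (SE 0.11).

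The 24 interferon response genes, 18 higher and 6 lower in null (median 0.26, 0 passing over all genes), were uneven across the arrays of both groups. Their mean was 6.94, 6.93 and 7.40 on the null arrays and 7.32, 6.54 and 6.56 on the wild-type arrays, with the third null and the first wild-type array highest. Isg15, a ubiquitin-like protein, differed by 1.41 (SE 0.44, adjusted p = 0.368 by limma), Ifi35 by 0.37 (SE 0.12), or 0.051 by the mean of its probe sets, Rsad2 by -0.38 (SE 0.10) and Oas2 by -0.67 (SE 0.23), and with the macrophage list mean as a covariate Isg15 was at 0.48 and Oas2 at -0.35. For the 9 members r with the interferon list mean ran from -0.742 for Psmb9 to 0.555 for Tap2 (exact permutation p of 0.0958 or above, adjusted p of 0.675 or above over the 18 relations). Spearman's rho of Psmb9 with that mean was -0.886 (exact permutation p = 0.0333, adjusted p = 0.3), and without the third null and the second wild-type array r was -0.484. Of 10 genes of class II presentation 6 had higher and 4 lower means (median 0.01). H2-Ab1, a class II chain, differed by 1.06 (SE 0.34), or 0.59 given the macrophage covariate. The transactivator gene Ciita differed by 0.05 (SE 0.13). Ctss, a lysosomal protease that is also 1 of the 25 macrophage markers, differed by -1.52 (SE 0.61), by -0.79 without the third null array and by 0.040 with that covariate.

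**Figure D5:**
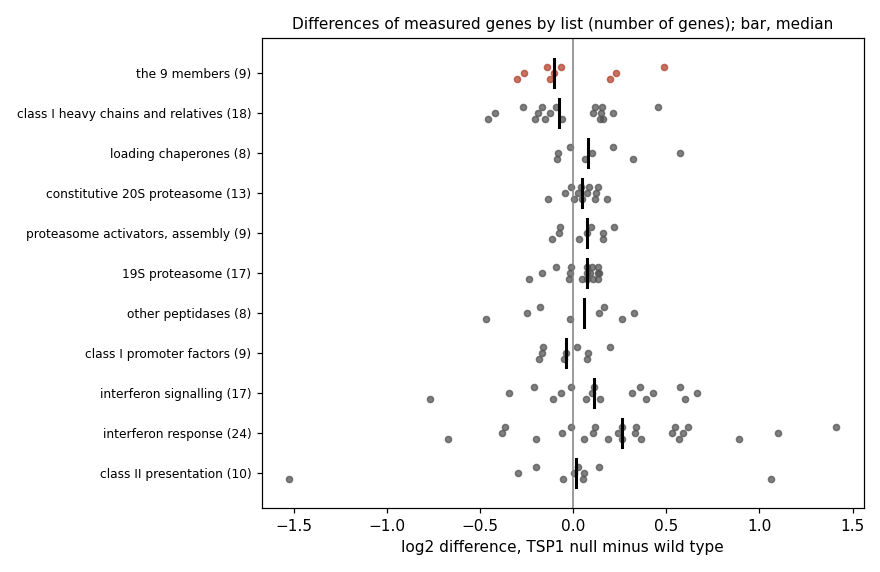
Log2 difference (TSP1 null minus wild type) of each measured gene in the 9 members and in 10 related lists, with the number of genes in brackets and a bar at the median. The members lie between -0.30 and 0.49, a narrower range than that of the interferon response genes, which reach 1.41.

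Markers of other cells the cultures could hold were followed in the same way. Lymphocyte markers had a list mean from 4.32 to 4.39 on the null arrays and from 4.45 to 4.48 on the wild-type arrays, below the array median. Of the 12 lymphocyte markers measured 3 had higher and 9 lower means in null, and Cd4 and Cd3e differed by -0.47 (SE 0.18) and -0.31 (SE 0.14). Dendritic cell markers had a list mean of 5.90, 5.88 and 5.62 on the null arrays and 5.69, 5.81 and 5.76 in wild type. Of the 7 dendritic cell markers measured 4 had higher and 3 lower means in null, and Zbtb46 differed by 0.29 (SE 0.11). Cd209a was far brighter than the rest of this list, at 10.00 in null and 9.79 in wild type on average. It differed by 0.22 (SE 0.16), and by 0.05 to 0.35 with 1 array left out. Macrophage markers were bright, 18 of 25 reached an unadjusted p under 0.05 (all of them lower in null, against 4.27% of all genes), and Mertk and Spi1 differed by -1.35 (SE 0.42) and -1.66 (SE 0.56). Without the third null array those values were -0.89 and -0.95. Of 12 fibroblast markers 6 had higher and 6 lower means in null, and 4 reached an unadjusted p under 0.05 (all of them higher in null, against 6.28% of all genes). Their list mean was 10.63, 11.20 and 10.70 on the null arrays and 11.29, 10.47 and 10.66 in wild type, where the first array was the highest of the 6 and the second the lowest. The collagen genes Col1a2 and Col3a1 differed by 0.51 (SE 0.11) and 1.03 (SE 0.27), and Col1a2 by 0.32 by the mean of its probe sets. Of 10 epithelial markers 8 had higher means, with Cldn4 at 0.67 (SE 0.21), and of 8 endothelial markers 5 had lower means, with Kdr at -0.55 (SE 0.18). What part any of these cells had in the class I values was not tested. The macrophage list mean was itself lower on average in null. The covariate values given above therefore cannot tell the cells' part from that of the genotype.

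By their mean centred on each gene's own level, the 9 members ran from -0.06 on the third null array to 0.05 on the second null array, with higher signals of some members set off by lower signals of others. The 5 other genes most like that mean over the 6 arrays were Cerox1, Gm10851, Gm17750, Rasa3 and Traf5, with Pearson's r from 0.965 to 0.985. These are the highest of 22171 values over only 6 arrays and are given as a description.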

How the data were processed

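Total RNA (150 ng per sample) of 6 cultures was labelled with biotin and hybridised to Affymetrix GeneChip Mouse Gene ST arrays, per the labels' protocols. Groups and replicate numbers came from the sample titles, which write the null group as TSP1-1. The authors deposited log2 signals, already normalized across arrays. Partek and RMA are named in the submitters' processing notes, without version or settings, and no genome build is stated in what was used here. RMA compresses differences of dim probe sets. Of 41345 probe sets, 23521 had exactly 1 gene symbol in the platform's annotation, 1814 several and 16010 none. The brightest probe set per gene was kept, leaving 22180 genes, with no intensity filter.

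Groups were compared with limma 3.58.1 in R 4.3.3 (lmFit, eBayes, two-sided) on all 6 arrays without covariates, with Benjamini-Hochberg adjustment over all genes. SE is limma's for genes and that of the difference of means for subunit pairs. The fit was tested in 10 simulated data sets of the same 22180 genes with 3 arrays a group, where it recovered 62.4% of 2-fold and 93.9% of 4-fold changes. Genes were drawn there independently of each other, so variation that genes share across real arrays was left out. Every member differed by less than 2-fold, a size the simulation did not try. Pairs of subunits and relations to list means were tested by exact permutation over arrays. Members, lists and tests were chosen with earlier results of these data known. Named were the members, the genes of smallest p in each list (2, or 4 for 4 of the lists), preset partners, and the 5 genes most like the members' mean. The relations to the list means and the pair of Tap1 with Psmb9 were added after the values were seen. So were the mentions of Acta2, Krt5, Vim, Col1a1, Fap and Epcam. Alternatives were other normalizations, a filter on dim probe sets, the mean of probe sets, all probe sets, a block for the replicate number, array weights, other variance models, a covariate for the macrophage list mean, and leaving out each array. Sequences are RefSeq's (GRCm38.p6), and no coordinates of probe sets are given.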

Additional observations from a re-analysis of the deposited data

How the results depend on the processing

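Over 16 alternative settings the members gave 143 values, of which 140 kept their sign, and 0 passed an adjusted p of 0.05. The dim filter, the test of all probe sets, the other variance models and the replicate block leave a gene's difference unchanged by construction. The mean of probe sets changed only Tapbp among the members. Values left unchanged in this way could not turn sign, so the 140 overstate how far the signs were tried. The 3 that turned were Psmb8 without the second null array (0.011, range with 1 array left out -0.25 to 0.011) and Nlrc5 without the first null array (0.017, range -0.16 to 0.017) and with the macrophage list mean as a covariate (0.014). Tap1 ran from 0.15 to 0.23, Tap2 from 0.34 to 0.58, B2m from -0.13 to -0.05, Psmb9 from -0.44 to -0.0043, Tapbp from 0.12 to 0.46, Psmb10 from -0.25 to -0.06 and Erap1 from -0.40 to -0.18. The median of the members was -0.054 after quantile normalization, -0.0043 with the macrophage covariate, and from -0.10 to -0.057 with 1 array left out. The count of genes called was 0 except for 2 when every deposited probe set was tested, and 0 to 34 with 1 array left out. The cause of these changes was not tested. The filter on dim probe sets left out Nlrc5.

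Deviations of same-numbered arrays from their group means correlated at -0.144, 0.184 and -0.162 over genes. Those of differently numbered arrays correlated at -0.183 to 0.258. No common likeness of same-numbered arrays was seen, but these values cannot tell whether such arrays were handled together. With the replicate number as a block 0 genes were called and 2215 had an unadjusted p under 0.05, and the differences of the subunit pairs were -0.24, -0.37 and -0.14. With 1 array left out Psmb8 minus Psmb5 ran from -0.44 to 0.042 and Psmb10 minus Psmb7 from -0.27 to 0.012. Of the other genes named, Psmb7 was -0.080 with array weights, and with the macrophage covariate Ctss was 0.040, Psme1 -0.25 and Psme2 0.039. With 1 array left out sign changes also occurred for Psmb5 (-0.081 to 0.22), Psmb6 (-0.033 to 0.14), Psmb7 (-0.13 to 0.11), Psma5 (-0.23 to 0.044), Ciita (-0.059 to 0.15), Psme1 (-0.11 to 0.21) and Psme2 (-0.25 to 0.10).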
